A study of Mus musculus with 4 samples.

Results

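The histone genes of mouse lymphoid-primed multipotent progenitors (LMPPs) are described here in 4 single-cell libraries. Members were taken by name: every gene whose symbol opens with Hist1h, Hist2h, Hist3h or Hist4h, which are called replication-linked, and H1f0, H1fx, H2afx, H2afy, H2afz, H2afv, H3f3a and H3f3b, which are called replacement members. This gave 77 of the 27998 genes in the count matrices, 69 replication-linked and 8 replacement, and 56 of the 77 lie on chromosome 13. Not all of the 69 are annotated as coding: Hist1h2al is listed as a processed pseudogene and an entry named Hist2h2bb as a noncoding RNA. LMPPs, bone marrow progenitors with lymphoid and myeloid potential, were sorted from C57BL/6 mice and read by droplet-based single-cell RNA sequencing, with 1 library for each group. The groups were RBPJ uninduced mice, whose cells lacked RBPJ, mice in which RBPJ had been switched back on with doxycycline for 3 days or for 6 days, and control mice, in which RBPJ was expressed throughout. RBPJ is the DNA-binding factor through which Notch receptors act. Doxycycline was injected at 2 mg/ml and then given in drinking water at 1 mg/ml, and the labels carry this text for all 4 libraries, so they do not say whether the uninduced and control mice received it. The labels give neither the allele that removes RBPJ, the promoter that drives the inducible copy, nor how many mice were pooled.

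Histones are the proteins on which DNA is wound. The replication-linked genes lie in clusters and supply core and linker histones while DNA is copied. Their mRNAs are unusual in ending, by rule, in a short stem-loop that is bound by the protein SLBP, and not in a poly(A) tail. Replacement genes make variants such as H2A.Z, H2A.X and macroH2A from polyadenylated mRNAs, also outside S phase. Droplet libraries capture RNA by its poly(A), so a replication-linked mRNA that ends at its stem-loop is read poorly, and UMIs can come from polyadenylated forms or from priming at internal runs of A. A unique molecular identifier (UMI) marks one captured molecule, and levels are given in CPM, the UMIs of a gene per 1000000 UMIs of the library or cell class. They are compared between libraries and cell classes, not between members.

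The ends of the transcripts set what such a library can read, so the stem-loops of members used below are shown first, from the GENCODE M21 transcripts of GRCm38, 5′ to 3′ on the strand of the gene. Capitals mark the stem-loop.
Hist1h2ap: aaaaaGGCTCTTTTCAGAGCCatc
Hist2h2ac: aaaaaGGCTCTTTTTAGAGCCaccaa
Hist1h4i: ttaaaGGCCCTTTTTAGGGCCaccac
Hist1h1c: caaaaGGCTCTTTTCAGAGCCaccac
Hist3h2a: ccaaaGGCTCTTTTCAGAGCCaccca
H2afx: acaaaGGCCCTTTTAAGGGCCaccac
The annotated Hist1h2ap transcript stops 3 bases after this element and that of Hist2h2ac 57 bases after it. The transcript of Hist1h4i runs on for 330 bases, of Hist1h1c for 840, of Hist3h2a for 1643 and of H2afx for 822. The longer transcripts of the members shown then reach a polyadenylation signal, in capitals below.
Hist1h4i: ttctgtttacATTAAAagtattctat
Hist1h1c: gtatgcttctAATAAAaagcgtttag
Hist3h2a: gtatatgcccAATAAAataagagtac
H2afx: ggctaattttATTAAAggatcgtttg
H2afx, known to make both a stem-loop form and a polyadenylated form, was the 1 replacement member with such an element. The histone stem-loop consensus, on the transcript strand and with both arms pairing, was found in 89 of all 141767 annotated transcripts (0.0628%), from 74 genes, 47 of which are members. Of the 69 replication-linked members, 23 ran 100 or more bases past it, 23 ended less than 100 bases past it and 22 had an annotated transcript with none. The remaining 1, a Hist2h2bb entry annotated as a noncoding RNA, had no coding or pseudogene transcript. A polyadenylation signal in the last 40 bases was found in 17 of the 69. Not all members that run on have one: Hist1h1d, Hist1h1e, Hist1h2ac and Hist1h4d do not. An annotated end says where a transcript model stops, not which form was captured.

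The 4 libraries held 2769 uninduced, 1292 3-day, 2129 6-day and 2693 control cells with 20952799, 10647894, 17455692 and 23504158 UMIs. All 10 LMPP markers were at 10 CPM or more in every library. Rbpj itself stood at 11.2 CPM in uninduced, 508 CPM in 3-day, 485 CPM in 6-day and 17.8 CPM in control cells. Which part of Rbpj the uninduced allele keeps is not given, so the reads at its 3′ end need not report its loss. Cells in which markers of other blood lineages made up 0.5% or more of the UMIs were 36 uninduced (1.30%), 22 3-day (1.70%), 42 6-day (1.97%) and 12 control (0.446%), and some results below are also given without them. Libraries shared 2 to 17 cell barcodes pairwise, where 3.73 to 10.1 are expected from barcodes drawn at random. With 1 library a group there is no replicate check and no test across conditions: intervals are 95% counting intervals, they do not cover differences between mice, and a group cannot be told apart from its library. In summed counts, fewer cells that express a gene and less RNA per cell also cannot be told apart.

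All 8 replacement members and 20 of the 69 replication-linked members reached 10 CPM in at least 1 library. A further 31 replication-linked members peaked between 2 and 10 CPM and 14 under 2 CPM. No UMI was found in any library for Hist1h2br, Hist1h2bq, Hist1h1t and Hist1h2ba. By family, 5 of 6 H1, 6 of 19 H2A, 4 of 19 H2B, 1 of 12 H3 and 4 of 13 H4 genes reached 10 CPM. In uninduced, 3-day, 6-day and control cells, the replication-linked members together took 0.0655%, 0.0723%, 0.0707% and 0.0719% of all UMIs, and the replacement members 1.22%, 1.22%, 1.12% and 1.19%. Barcodes with 10 to 100 UMIs, which hold mostly free RNA, gave replication-linked sums of 628, 744, 673 and 609 CPM in the same order, beside 655, 723, 707 and 719 CPM in cells.

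Levels of the replication-linked members are given here in the order uninduced, 3-day, 6-day and control cells. Among linker histone genes, whose proteins bind the DNA between nucleosomes, Hist1h1c was at 46.7, 47.1, 41.5 and 40.8 CPM and Hist1h1e at 44.3, 41.2, 40.1 and 42.6 CPM. Hist1h1b was at 34.9, 34.7, 36.1 and 39.8 CPM, Hist1h1a at 18.3, 24.1, 20.7 and 21.6 CPM and Hist1h1d at 9.74, 9.86, 10.4 and 9.87 CPM. None of the 5 differed by 1.5-fold in the comparisons of libraries given below. Of the H2A genes, Hist1h2ap was at 48.1, 46.0, 53.0 and 52.7 CPM, Hist3h2a at 50.2, 50.1, 44.1 and 38.0 CPM and Hist1h2ae at 28.2, 33.9, 39.6 and 35.1 CPM. Hist2h2ac was at 14.1, 14.4, 15.98 and 16.7 CPM and Hist2h2aa1 at 11.8, 17.9, 14.5 and 12.3 CPM. Hist1h2ac, the sixth H2A gene at this level, is described with the libraries. Of the H2B genes, Hist1h2bc was at 69.4, 65.4, 63.5 and 60.1 CPM and Hist3h2ba at 20.5, 16.5, 16.3 and 16.9 CPM. Hist1h2bg was at 10.7, 12.0, 12.9 and 11.9 CPM. The 1 H3 gene, Hist1h3e, was at 8.64, 8.55, 9.57 and 12.2 CPM, highest in control cells. Of the H4 genes, Hist1h4i was at 61.7, 70.0, 59.2 and 59.7 CPM, Hist4h4 at 16.1, 22.5, 17.2 and 16.6 CPM and Hist1h4h at 9.88, 13.2, 12.8 and 13.6 CPM. Some of these counts may hold reads of other genes. The final 500 bases of transcript, cut into words of 31 bases, matched other genes in 100% of words for Hist2h2aa1 and 99.15% for Hist1h1e. The share was 87.0% for Hist1h3e, 57.0% for Hist1h2bg and 50% for Hist1h4h. Shares for Hist1h2ap, Hist1h2ae and Hist2h2ac are given below.

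**Figure D1:**
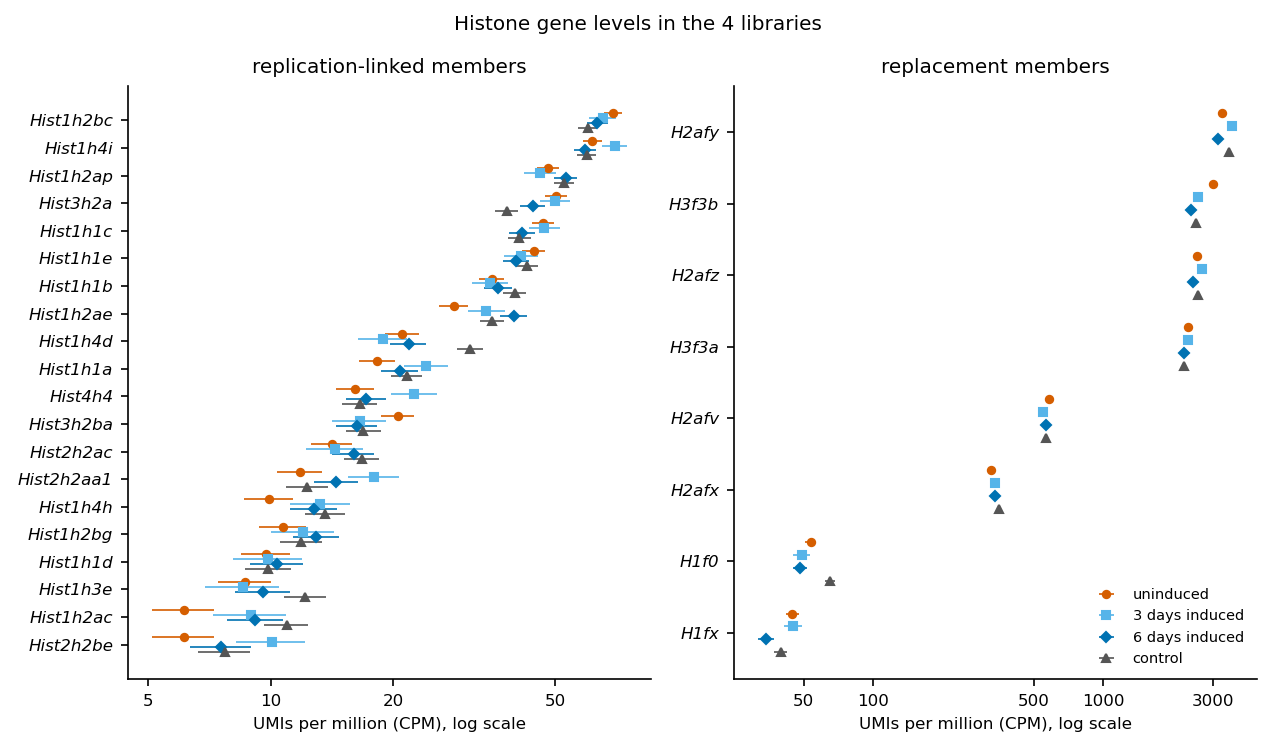
Level of each histone gene that reached 10 CPM in at least 1 library, in CPM on a log axis, with 95% Poisson intervals from counting alone and 1 library per group. The 4 libraries lie close together for most members; Hist1h2ac in uninduced cells (6.11 CPM) lies left of control (10.9 CPM).

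Cells were then set apart by cell cycle, using 48 S phase and 48 G2/M genes that include no member. Each of 7278 cells with at least 4700 UMIs was thinned to 4700, and the list sums were cut at the 25th and 75th percentiles. Cells at or above 21 UMIs in the S list and below 34 in the G2/M list form the S phase class, those high in the G2/M list alone the G2/M class, and those high in both the both-high class. Cells at or below 6 UMIs in each list are called non-cycling. These classes are ranges of a sum and not cell types: 932 cells lay within 2 UMIs of the S cut and 225 within 2 of the G2/M cut. S phase held 494 uninduced, 236 3-day, 368 6-day and 539 control cells, and the non-cycling class held 306, 133, 328 and 361. Non-cycling cells made up 14.6% of classed uninduced, 12.2% of 3-day, 18.7% of 6-day and 15.4% of control cells. The median UMI count per cell was 9317 to 10081 in S phase and 5524 to 5810 in non-cycling cells. Doublets were not called, and the both-high cells had a median of 10455 to 12463 UMIs.

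Replication-linked RNA was higher in S phase than in non-cycling cells, and higher again in the G2/M and both-high classes. Its summed level in S phase was 547 CPM in uninduced, 601 CPM in 3-day, 669 CPM in 6-day and 626 CPM in control cells, against 271, 371, 308 and 340 CPM in non-cycling cells in the same order. The ratio of S phase to non-cycling cells was 2.02 (1.83 to 2.23), 1.62 (1.43 to 1.84), 2.17 (1.99 to 2.38) and 1.84 (1.70 to 2.00). G2/M cells held 1105 to 1198 CPM and both-high cells 1429 to 1564 CPM over the 4 libraries. Markers of other cell types differed between these classes too. In uninduced, 3-day, 6-day and control cells, the 9 mature neutrophil markers summed to 1499, 178, 376 and 24.2 CPM in S phase, 44.4, 354, 48.3 and 17.4 CPM in both-high, 9718, 6781, 5098 and 2103 CPM in G2/M and 2992, 3950, 61.6 and 32.5 CPM in non-cycling cells. The erythroid markers summed to 8281, 15.7, 5957 and 39.4 CPM in both-high cells. Without cells of other lineages the 4 S phase ratios were 2.01, 1.61, 2.19 and 1.85; the part of these cells in the G2/M and both-high sums was not tested. Without the members that share most of their transcript end with other genes the 4 ratios were 1.28, 1.14, 1.34 and 1.13, and with cells cut at terciles 1.25, 1.27, 1.16 and 1.16. The replacement sum had ratios of 1.39, 1.29, 1.38 and 1.33. By family the S phase ratio was 2.57, 1.63, 2.45 and 1.95 for H1, 2.52, 1.86, 3.09 and 2.52 for H2A, 6.44, 2.55, 5.18 and 3.33 for H3 and 2.88, 1.86, 2.54 and 2.32 for H4 genes. The H2B sum had ratios of 0.708 (0.590 to 0.854), 1.03 (0.793 to 1.34), 0.888 (0.749 to 1.06) and 0.810 (0.694 to 0.948), so that its 3-day and 6-day intervals include 1. These are shares of a total that was larger in S phase: per cell, H2B genes gave 0.694, 1.04, 0.976 and 0.941 UMIs in S phase and 0.585, 0.594, 0.671 and 0.673 UMIs in non-cycling cells, higher in S phase in all 4 libraries. Hist1h2bc, described below, made up most of the H2B sum in non-cycling cells, which was 99.6, 100, 108 and 113 CPM. The sum does not stand for each H2B gene. Of the 10 H2B genes between 2 and 10 CPM, 5 were higher in S phase by 2-fold or more in all 4 libraries and 0 lower. All of these 5 but Hist1h2bb, which shares 48.5%, share most of their transcript end with other genes, so they are not separate measurements.

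Of the 16 replication-linked members that reached 10 CPM in either class in all 4 libraries, 7 were higher in S phase by 2-fold or more on the CPM + 1 scale in every library, beside 5.13% of all genes measured so. They were the linker genes Hist1h1a, Hist1h1b and Hist1h1d, the H2A genes Hist1h2ae, Hist1h2ap and Hist2h2ac, and the H4 gene Hist1h4i. A member could pass the minimum through its high class alone, so these counts describe the members that passed and test nothing. In single libraries the count was 12 of 16 in uninduced, 9 of 21 in 3-day, 13 of 23 in 6-day and 16 of 24 in control cells, beside 8.36%, 10.4%, 8.46% and 7.98% of all genes. Lower by 2-fold or more were 2, 4, 2 and 4 members, beside 4.29%, 5.09%, 3.82% and 4.49%. The median log2 ratio over the replication-linked members measured was 1.49, 0.84, 1.64 and 1.47, beside 0.01, 0.06, 0.04 and -0.01 over all genes.

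Hist1h1b, a linker histone gene on the minus strand of chromosome 13 (21779883 to 21780625, GRCm38), was nearly undetected in non-cycling cells. It stood at 46.9 CPM in uninduced, 45.1 CPM in 3-day, 43.7 CPM in 6-day and 43.5 CPM in control S phase cells, while non-cycling cells held 2, 1, 0 and 5 UMIs in the same order. S phase was above the non-cycling class in all 4 libraries. The ratio was 42.1 (11.5 to 350) in the uninduced and 35.6 (6.25 to 1417) in the 3-day library. In the control library it was 18.7 (7.91 to 58.2). In the 6-day library it was 29.6 with the 0 non-cycling UMIs set to 3, a stand-in value and not an interval limit. Both-high cells were at 113, 78.4, 134 and 114 CPM and G2/M cells at 63.3, 62.1, 61.4 and 65.6 CPM. Hist1h1a was at 22.0, 31.7, 26.8 and 23.8 CPM in S phase and at 1.67, 12.7, 2.46 and 3.72 CPM in non-cycling cells. Its 3-day ratio of 2.50 (1.29 to 5.43), from 10 non-cycling UMIs, was the lowest of the 4. Hist1h1d was at 10.5, 12.1, 13.1 and 12.1 CPM in S phase and at 3.90, 2.53, 1.97 and 3.72 CPM in non-cycling cells, where it had 7, 2, 4 and 8 UMIs.

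Among H2A genes, Hist1h2ap (chromosome 13, 21833026 to 21833507, minus strand, GRCm38) was at 54.95 CPM in uninduced, 43.0 CPM in 3-day, 67.0 CPM in 6-day and 53.1 CPM in control S phase cells, against 3.90, 0, 3.45 and 5.11 CPM in non-cycling cells. The S phase ratio was 14.1 (6.75 to 35.4), 11.3, 19.4 (9.30 to 48.8) and 10.4 (5.72 to 21.03). The 3-day value of Hist1h2ap, 11.3, sets the 0 non-cycling UMIs to 3 and is not an interval limit. Cut into words of 31 bases, the final 500 bases of its transcripts matched other genes in 93.4% of words, so its count may hold reads of near-identical copies, and how the authors' counter assigned such reads is not given in the sources used here. Hist1h2ae, with 58.3% of its end shared, was at 28.4, 25.9, 42.1 and 33.2 CPM in S phase and at 4.45, 8.87, 8.87 and 8.83 CPM in non-cycling cells. Hist2h2ac, with 54.9% shared, was at 13.8, 11.3, 17.7 and 19.1 CPM in S phase and at 3.34, 5.07, 4.43 and 5.11 CPM in non-cycling cells, and its 3-day interval includes 1, at 2.22 (0.774 to 8.74). The H4 gene Hist1h4i (22040636 to 22041362 on the minus strand of chromosome 13, GRCm38), with 17.2% shared, was at 62.8, 64.7, 60.9 and 59.6 CPM in S phase and at 18.9, 27.9, 21.7 and 14.4 CPM in non-cycling cells. Hist1h4d, whose end is not shared, was at 19.8, 16.7, 26.5 and 28.3 CPM in S phase and at 6.68, 8.87, 5.42 and 7.44 CPM in non-cycling cells.

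Of the 31 replication-linked members between 2 and 10 CPM, 16 were higher in S phase by 2-fold or more in all 4 libraries and 0 lower, beside 2.51% and 0.657% of all genes in that range. They were 6 H2A genes (Hist1h2ab, Hist1h2af, Hist1h2ag, Hist1h2ak, Hist1h2al and Hist1h2an), 5 H2B genes (Hist1h2bb, Hist1h2bj, Hist1h2bk, Hist1h2bl and Hist1h2bm), 4 H3 genes (Hist1h3b, Hist1h3c, Hist1h3g and Hist1h3i) and the H4 gene Hist1h4b. Each rests on few UMIs: Hist1h3c had 21, 7, 30 and 27 UMIs in S phase and 0 in the non-cycling cells of every library. All of the 16 but Hist1h2bb, which shares 48.5%, share most of their end words with other genes. Their counts are therefore uncertain member by member, and the 16 are not separate measurements.

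Another set of members was lower in S phase as a share of UMIs. Hist1h2bc, an H2B gene on chromosome 13 (23684199 to 23692908, plus strand, GRCm38), was the 1 replication-linked member lower in S phase by 2-fold or more in all 4 libraries, beside 1.01% of all genes. It stood at 11.1 CPM in uninduced, 25.5 CPM in 3-day, 17.4 CPM in 6-day and 11.6 CPM in control S phase cells, against 70.7, 57.0, 73.9 and 73.4 CPM in non-cycling cells. The ratios were 0.157 (0.112 to 0.218), 0.446 (0.299 to 0.671), 0.236 (0.173 to 0.318) and 0.157 (0.116 to 0.212). G2/M cells held 80.1, 88.3, 62.7 and 55.1 CPM, above S phase in every library. Without cells of other lineages the ratios were 0.154, 0.419, 0.235 and 0.155. Hist3h2a and Hist3h2ba, neighbouring H2A and H2B genes on the plus strand of chromosome 11 (58954685 to 58956830 and 58948920 to 58949533, GRCm38), were also lower in S phase than in non-cycling cells. Hist3h2a was at 22.2, 18.8, 20.6 and 16.1 CPM in S phase, 90.6, 88.3, 73.6 and 58.7 CPM in G2/M and 46.2, 49.4, 41.9 and 47.4 CPM in non-cycling cells. Hist3h2ba was at 5.97, 9.18, 5.90 and 7.40 CPM in S phase, 44.2, 31.05, 23.7 and 25.05 CPM in G2/M and 12.2, 12.7, 13.3 and 18.1 CPM in non-cycling cells, and its 3-day interval includes 1, at 0.724 (0.329 to 1.71). Per cell, Hist1h2bc gave 0.109, 0.258, 0.177 and 0.119 UMIs in S phase and 0.415, 0.338, 0.457 and 0.438 UMIs in non-cycling cells. Hist3h2a gave 0.219, 0.191, 0.209 and 0.165 UMIs per S phase cell and 0.271, 0.293, 0.259 and 0.283 per non-cycling cell, and both genes were lower in S phase in all 4 libraries on this scale too. Hist3h2ba, at 0.0587, 0.0932, 0.0598 and 0.0761 UMIs per S phase cell and 0.0719, 0.0752, 0.0823 and 0.108 per non-cycling cell, was higher in S phase at 3 days on this scale.

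The linker genes lay on both sides. Hist1h1c (chromosome 13, 23738808 to 23740367, plus strand, GRCm38) was at 22.0 CPM in uninduced, 22.1 CPM in 3-day, 22.0 CPM in 6-day and 17.5 CPM in control S phase cells, against 34.0, 58.3, 33.5 and 43.2 CPM in non-cycling cells. Its ratios were 0.649 (0.469 to 0.903), 0.379 (0.251 to 0.576), 0.656 (0.470 to 0.919) and 0.405 (0.302 to 0.544). Per cell it gave 0.217, 0.225, 0.223 and 0.17996 UMIs in S phase and 0.199, 0.346, 0.207 and 0.258 UMIs in non-cycling cells, so that on this scale S phase was the higher in the uninduced and 6-day libraries. H1f0, the replacement linker gene on chromosome 15 (79028450 to 79030504, plus strand, GRCm38), is known for accumulating in arrested and differentiating cells. It was at 18.3, 15.4, 20.4 and 26.2 CPM in S phase, 86.9, 81.3, 72.2 and 102 CPM in G2/M and 54.0, 65.9, 68.0 and 72.5 CPM in non-cycling cells, with S phase ratios of 0.339 (0.252 to 0.457), 0.234 (0.149 to 0.364), 0.2997 (0.223 to 0.399) and 0.361 (0.286 to 0.456). Per cell it gave 0.1802, 0.157, 0.207 and 0.269 UMIs in S phase and 0.317, 0.391, 0.421 and 0.432 UMIs in non-cycling cells, lower in S phase in all 4 libraries. Since Hist1h1b and Hist1h1c belong to 1 family and differed in direction, the 250 bases before their starts are shown, from RefSeq on GRCm38.p6, each on the strand of its gene, with 3 motifs in capitals on either strand: the CCAAT box, the TATA box in the form TATAAA, and the H1 box, which is written AAACACA.
Hist1h1b, chr13:21780626-21780875, minus strand: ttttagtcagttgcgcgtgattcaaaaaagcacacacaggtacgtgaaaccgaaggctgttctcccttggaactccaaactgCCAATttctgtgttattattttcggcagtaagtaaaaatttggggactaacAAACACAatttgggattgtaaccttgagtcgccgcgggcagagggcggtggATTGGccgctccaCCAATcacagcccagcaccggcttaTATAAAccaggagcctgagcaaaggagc
Hist1h1c, chr13:23738557-23738806, plus strand: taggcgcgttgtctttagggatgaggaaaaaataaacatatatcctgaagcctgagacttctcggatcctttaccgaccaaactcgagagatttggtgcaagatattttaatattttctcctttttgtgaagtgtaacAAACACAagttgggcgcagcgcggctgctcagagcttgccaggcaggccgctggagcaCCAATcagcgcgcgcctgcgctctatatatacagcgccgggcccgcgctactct
The H1 box starts 117 bases before the start of Hist1h1b and 112 before that of Hist1h1c. The CCAAT nearest to the start lies 53 bases before it in Hist1h1b and 54 in Hist1h1c. The letters TATAAA occur in the Hist1h1b stretch alone, 28 bases before its start. The Hist1h1c stretch holds the letters tatatata between its CCAAT and its start, which the exact form TATAAA does not match. The lack of TATAAA there therefore need not mean that Hist1h1c lacks a TATA box. In promoters of 250 bases before to 50 after the start, 72 promoters of 70 members were matched, and both strands were searched, each motif on its own. CCAAT occurred in 83.3% of them and in 37.4% of all 32851 promoters, TATAAA in 50% and 13.6%, and the octamer ATTTGCAT in 22.2% and 1.74%. AAACACA occurred in 13.9% and 7.18%, and the E2F-type TTTCGCGC in 12.5% and 0.323%. AAACACA was present in 5 of the 8 H1 promoters and ATTTGCAT in 8 of the 18 H2B promoters. A match of letters is a description and not a bound site.

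**Figure D2:**
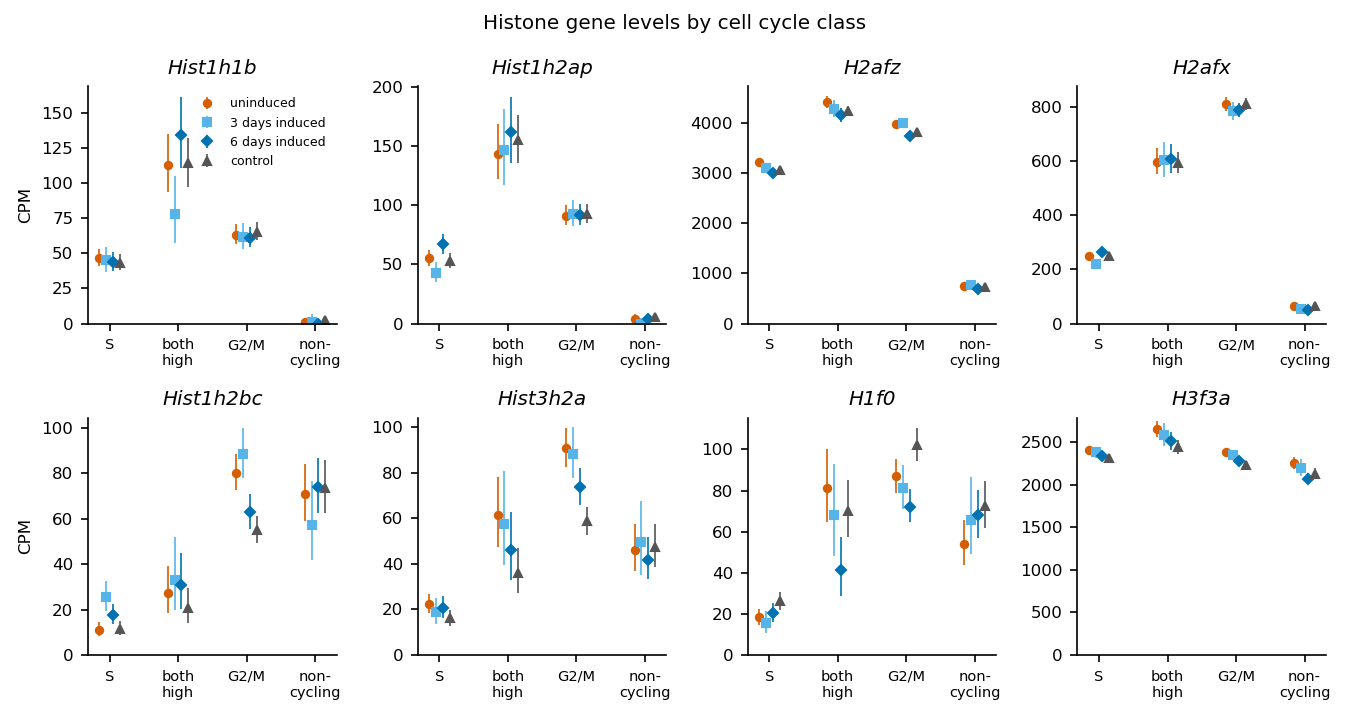
Level in CPM of 8 histone genes in 4 cell cycle classes, with 95% Poisson intervals from counting alone, 1 point per library. Hist1h1b, Hist1h2ap, H2afz and H2afx are lowest in non-cycling cells, and Hist1h2bc, Hist3h2a and H1f0 are lowest in S phase.

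Of the 8 replacement members, 3 were higher in S phase by 2-fold or more in all 4 libraries, and 1, H1f0, was lower, beside 5.13% and 1.01% of all genes. H2afz (chromosome 3, 137864487 to 137866922, plus strand, GRCm38), which encodes H2A.Z of promoters and enhancers, was at 3219 CPM in uninduced, 3094 CPM in 3-day, 3007 CPM in 6-day and 3070 CPM in control S phase cells, against 739, 776, 696 and 725 CPM in non-cycling cells. Its ratios were 4.35 (4.12 to 4.61), 3.99 (3.67 to 4.34), 4.32 (4.09 to 4.57) and 4.24 (4.02 to 4.47). H2afx (chromosome 9, 44334694 to 44336077, plus strand, GRCm38), whose protein is phosphorylated beside DNA breaks, was at 248, 220, 263 and 249 CPM in S phase and at 65.7, 52.0, 51.2 and 63.7 CPM in non-cycling cells. Its level was highest in G2/M, at 812, 786, 790 and 810 CPM. H1fx, a linker variant, was at 41.8, 33.4, 35.1 and 40.8 CPM in S phase and at 11.7, 13.9, 9.85 and 12.1 CPM in non-cycling cells. H2afv, a close relative of H2afz, had S phase ratios of 1.89, 1.78, 1.69 and 1.78. H3f3a, which encodes the replacement H3, had ratios of 1.07 to 1.13, and H2afy, which encodes macroH2A, of 1.07 to 1.15. H3f3b, which encodes the same protein as H3f3a, had ratios of 1.02 (0.989 to 1.06), 0.789 (0.749 to 0.831), 1.01 (0.972 to 1.05) and 0.852 (0.825 to 0.879). Per cell it gave 25.7, 20.9, 22.6 and 22.6 UMIs in S phase and 14.98, 15.5, 13.7 and 15.4 UMIs in non-cycling cells, higher in S phase in all 4 libraries. Its both-high level was above the other classes, at 4393, 3606, 3372 and 3596 CPM.

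**Figure D3:**
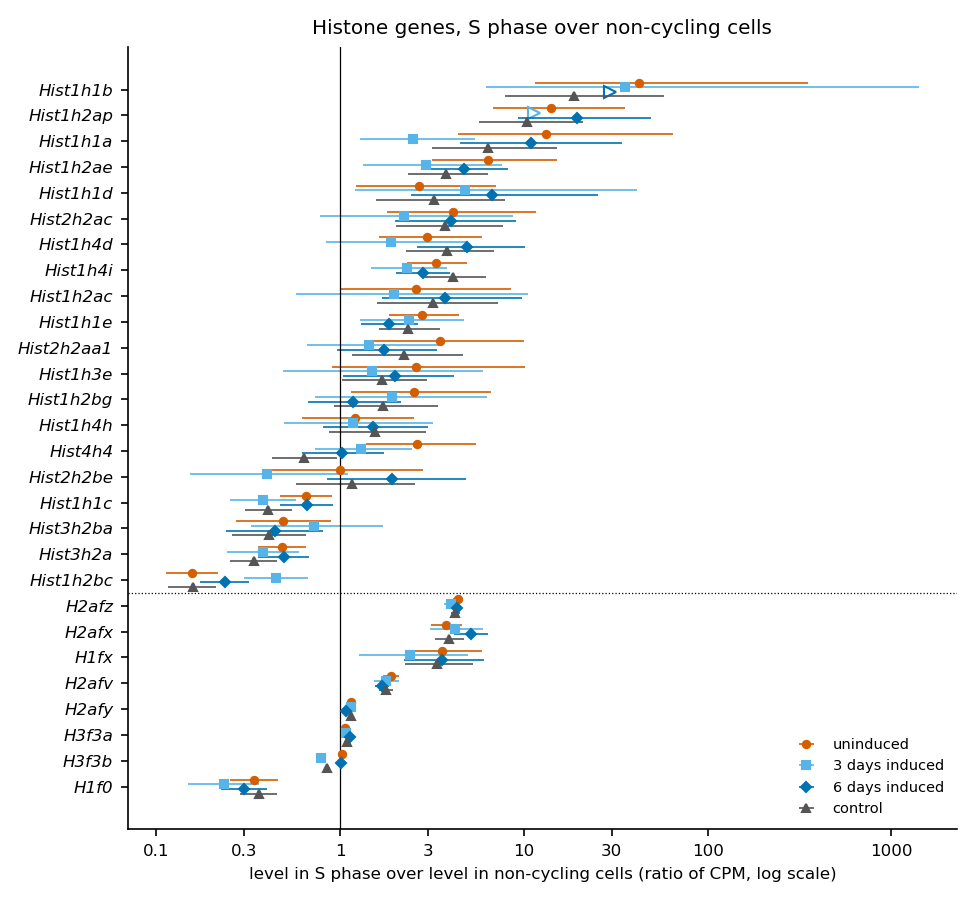
Ratio of the level in S phase to that in non-cycling cells for each member of at least 10 CPM in 1 library, on a log axis, with conditional exact 95% intervals; replication-linked members stand above the dotted line and replacement members below it. Open triangles mark the ratio with 3 UMIs set in the non-cycling class where it held 0 UMIs (Hist1h1b at 6 days, Hist1h2ap at 3 days). They are not interval limits.

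Members were then set apart by the annotated transcript end. The 23 that end less than 100 bases past the stem-loop summed to 146 CPM in uninduced, 152 CPM in 3-day, 202 CPM in 6-day and 185 CPM in control S phase cells, against 24.5, 41.8, 30.05 and 32.5 CPM in non-cycling cells. Their ratios were 5.97 (4.40 to 8.29), 3.63 (2.54 to 5.36), 6.72 (5.17 to 8.87) and 5.68 (4.46 to 7.35). The 23 that run 100 or more bases past it summed to 278, 294, 311 and 296 CPM in S phase and to 165, 234, 189 and 215 CPM in non-cycling cells. Their ratios were 1.69 (1.49 to 1.92), 1.25 (1.07 to 1.48), 1.64 (1.46 to 1.85) and 1.38 (1.24 to 1.53), and the intervals of the 2 sets do not overlap in any library. The 22 with no stem-loop in the annotated transcript, Hist1h1b and Hist1h2bc among them, had ratios of 1.51, 1.63, 1.75 and 1.57. Hist1h1c, Hist3h2a and Hist3h2ba, which were lower in S phase, belong to the set that runs on, as do Hist1h4i, Hist1h4d and Hist1h1d, whose ratios lay above 1. Most of the end was shared with other genes for 22 of the 23 members that end early and 7 of the 23 that run on, and the part of this in the difference was not tested. Hist1h2ap, of the set that ends early, held 54.95, 43.0, 67.0 and 53.1 CPM of that set's S phase sum.

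**Figure D4:**
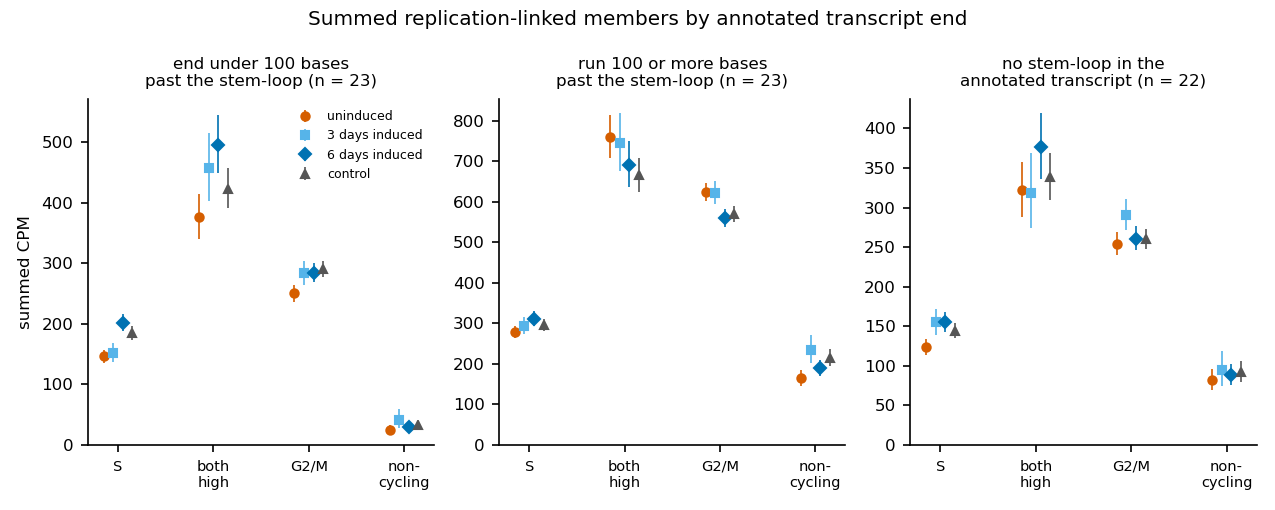
Summed level in CPM of replication-linked members in 4 cell cycle classes, in 3 sets by annotated transcript end, with 95% Poisson intervals from counting alone, 1 point per library. In non-cycling cells the members that end close to the stem-loop lie at 24.5 to 41.8 CPM and those that run on at 165 to 234 CPM.

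Genes that make, process and deliver histones were taken from a list of 32. Of the 30 measured in all 4 libraries, 10 were higher in S phase by 2-fold or more in every library and 0 lower, beside 5.13% and 1.01% of all genes. They were Slbp, which binds the stem-loop, Casp8ap2, a factor of histone gene transcription and processing, Eri1, a nuclease that acts on histone mRNA ends, the chaperones Asf1b, Chaf1a, Chaf1b, Nasp and Nap1l1, the acetyltransferase Hat1, and Rbbp7. Cells were classed by S phase genes, so genes that rise together with those are higher in this class by its making. The count describes the list and tests nothing. Asf1b was at 42.2, 38.0, 34.9 and 48.7 CPM in S phase, and its non-cycling classes held 1, 0, 2 and 1 UMIs. Chaf1a, the large subunit of the replication-coupled assembly factor, was at 54.3, 44.6, 49.9 and 57.4 CPM in S phase and at 5.57, 8.87, 7.39 and 4.65 CPM in non-cycling cells. Nasp, a chaperone of H3 and H4, was at 113, 133, 104 and 103 CPM in S phase and at 14.5, 27.9, 21.2 and 18.1 CPM in non-cycling cells. Slbp, singled out for its role after its values were seen, was at 241, 262, 240 and 256 CPM in S phase and at 61.8, 83.6, 53.7 and 64.6 CPM in non-cycling cells. The lowest median ratios belonged to Cpsf3, the nuclease that cuts histone mRNA ends, Lsm10, of the U7 particle, and Tonsl. Their ratios ran from 0.680 to 1.09 for Cpsf3, from 0.768 to 0.964 for Lsm10 and from 0.811 to 0.962 for Tonsl.

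Between libraries, few members of at least 10 CPM differed by 1.5-fold. The replication-linked sum was 655 CPM in uninduced, 723 CPM in 3-day, 707 CPM in 6-day and 719 CPM in control cells. Its ratio was 0.911 (0.891 to 0.932) for uninduced over control, 1.10 (1.07 to 1.13) for 3-day over uninduced, 1.08 (1.05 to 1.11) for 6-day over uninduced and 0.983 (0.961 to 1.01) for 6-day over control cells. The uninduced over control ratio was 0.874 (0.831 to 0.920) within S phase and 0.798 (0.710 to 0.896) within non-cycling cells. Within G2/M it was 1.01 (0.974 to 1.05) and within both-high cells 1.02 (0.956 to 1.09). Leaving out members of mostly shared ends gave 0.999. Without members of mostly shared ends the 6-day over uninduced ratio was 0.981, and within G2/M it was 0.978 (0.941 to 1.02), both below 1. The 6-day over control ratio was above 1, at 1.04 with TMM and at 1.05 with DESeq2 scaling. For the replacement sum these ratios were 1.02, 1.00, 0.923 and 0.942. The comparisons share the uninduced or the control library and are not independent. In uninduced over control cells 0 of 26 members were higher and 1 lower, beside 0.691% and 0.76% of all genes. In 3-day over uninduced cells 1 of 25 was higher and 0 lower, beside 0.466% and 0.847%. In 6-day over uninduced cells 0 of 25 were called either way, beside 0.733% higher and 0.31% lower, and in 6-day over control cells 0 of 27, beside 0.608% and 0.152%. The lower member was Hist1h2ac, an H2A gene whose end is found in no other gene, at 6.11 CPM in uninduced, 8.92 CPM in 3-day, 9.17 CPM in 6-day and 10.9 CPM in control cells. Its uninduced over control ratio was 0.559 (0.448 to 0.693). The higher member was the H2B gene Hist2h2be, at 6.11, 10.0, 7.56 and 7.70 CPM in the same order, with a 3-day over uninduced ratio of 1.64 (1.26 to 2.14). Of the supply genes, 0 passed 1.5-fold in any of the 4 comparisons.

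At a minimum of 2 CPM more members passed. In uninduced over control cells 0 of 58 were higher and 10 lower, beside 1.05% and 1.28% of all genes, and the median log2 ratio over the 50 replication-linked members measured was -0.26, beside -0.08 over all genes. In 3-day over uninduced cells 6 of 55 were higher and 0 lower, beside 1.06% and 1.58%. In 6-day over uninduced cells 7 of 57 were higher and 0 lower, beside 1.11% and 0.531%. In 6-day over control cells 0 of 59 were called, beside 1.01% higher and 0.435% lower. The 10 lower in uninduced than in control cells were Hist1h2ab, Hist1h2ac, Hist1h2af, Hist1h2ag, Hist1h2an, Hist1h2bb, Hist1h2bk, Hist1h3g, Hist1h4b and Hist1h4n. The 6 higher at 3 days were Hist2h2be, Hist1h2ab, Hist1h2ag, Hist1h2bk, Hist1h2bl and Hist1h3i, and the 7 higher at 6 days were Hist1h2ab, Hist1h2af, Hist1h2ag, Hist1h2an, Hist1h2bk, Hist1h3g and Hist1h4n. All of these members but Hist1h2ac, Hist1h2bb (48.5%) and Hist2h2be share 50% or more of their end words with other genes. Their counts are uncertain member by member, and the calls are not separate measurements. In uninduced, 3-day, 6-day and control cells, Hist1h2ag was at 3.48, 5.73, 9.45 and 7.45 CPM, with a 6-day over uninduced ratio of 2.71 (2.05 to 3.62). Hist1h2ab was at 3.44, 5.92, 6.24 and 7.87 CPM, with an uninduced over control ratio of 0.437 (0.328 to 0.576). Hist1h2af was at 4.53, 5.73, 7.85 and 9.27 CPM and Hist1h2an at 4.92, 6.57, 8.88 and 9.49 CPM. Uninduced cells were lowest for all 4. Of the H2B genes called, Hist1h2bk was at 2.53, 5.54, 5.21 and 4.81 CPM, Hist1h2bb at 5.58, 8.55, 7.56 and 8.93 CPM and Hist1h2bl at 2.15, 4.23, 2.69 and 2.60 CPM. Of the H3 and H4 genes called, Hist1h3g was at 1.81, 1.69, 3.44 and 3.49 CPM, Hist1h3i at 4.92, 9.02, 5.61 and 6.81 CPM, Hist1h4b at 1.96, 2.07, 2.46 and 3.66 CPM and Hist1h4n at 1.34, 1.69, 2.52 and 2.98 CPM.

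The 14 Hist1h2a genes summed to 109 CPM in uninduced, 123 CPM in 3-day, 149 CPM in 6-day and 148 CPM in control cells, with ratios of 0.737 (0.699 to 0.777) for uninduced over control, 1.13 (1.05 to 1.21) for 3-day over uninduced, 1.36 (1.29 to 1.44) for 6-day over uninduced and 1.00 (0.954 to 1.06) for 6-day over control cells. The 12 other than Hist1h2ap and Hist1h2ae, a set chosen after the values were seen, summed to 32.9, 43.4, 56.2 and 60.5 CPM. Within S phase these 12 stood at 34.6, 40.9, 71.0 and 67.5 CPM and within G2/M at 61.4, 79.2, 97.3 and 99.2 CPM, and the uninduced value was the lowest in both. Because of how the 12 were chosen, this is no check of the sum. Within S phase alone the 3-day over uninduced ratio of all 14 was 0.930, below 1. All Hist1h2a genes but Hist1h2ac and Hist1h2aa share 50% or more of their end words with other genes, so their counts are uncertain member by member. Hist1h2al, annotated as a processed pseudogene, is among the 14. Summed mature neutrophil markers were at 3511, 4156, 2940 and 978 CPM in the same libraries. Without the cells of other lineages the ratios of the Hist1h2a sum stayed within their counting intervals in every comparison. The Hist1h2ac ratio of uninduced to control cells was then 0.554. The part of neutrophil RNA in these differences was not otherwise tested.

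**Figure D5:**
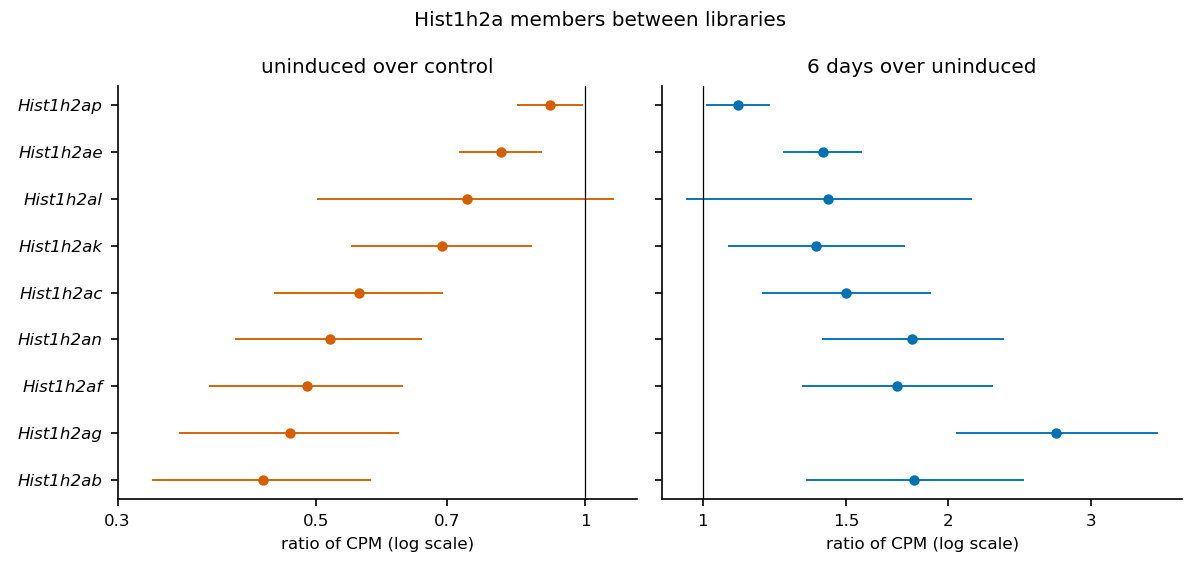
Ratio of levels between libraries for the Hist1h2a genes that reached 2 CPM, on a log axis, with conditional exact 95% intervals from counting alone and 1 library per group. In uninduced over control cells every ratio lies below 1 and the interval of Hist1h2al reaches past it; in 6-day over uninduced cells every ratio lies above 1, Hist1h2ag highest at 2.71.

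Other members are given here. Hist1h4d was at 21.05 CPM in uninduced, 18.9 CPM in 3-day, 21.8 CPM in 6-day and 30.9 CPM in control cells, and its uninduced over control ratio of 0.680 (0.603 to 0.767) missed 1.5-fold on the CPM + 1 scale. Hist3h2a lay the other way, with an uninduced over control ratio of 1.32 (1.21 to 1.45). H3f3b was at 2993 CPM in uninduced, 2583 CPM in 3-day, 2403 CPM in 6-day and 2533 CPM in control cells, highest in uninduced cells, with a ratio to control of 1.18 (1.17 to 1.20). H1f0 was at 53.5, 48.9, 48.1 and 65.1 CPM, highest in control cells, and H1fx at 44.6, 44.8, 34.2 and 39.8 CPM, lowest in 6-day cells. H2afy was at 3261, 3628, 3142 and 3526 CPM and H2afz at 2554, 2670, 2453 and 2587 CPM. H3f3a was at 2340, 2335, 2233 and 2234 CPM, H2afv at 583, 546, 565 and 564 CPM and H2afx at 325, 339, 337 and 352 CPM, and none of these 5 differed by 1.5-fold between libraries.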

How the data were processed

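Single-cell libraries of sorted LMPPs were analysed, 1 for each of 4 groups. The authors deposited UMI counts per gene and barcode for every barcode, and a log2 table of the cells they kept. The submitters' processing notes name Seurat and mm10, and nothing used here names the counter or says how it treated reads that fit several genes. Deposited log2 values served only to list the cells and to check the scale: in 400 rows per library 0 values differed by more than 1e-06 from those recomputed from the counts.

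Counts were summed over cells and given per 1000000 UMIs (CPM), with exact 95% Poisson intervals, conditional exact intervals for ratios and Clopper-Pearson intervals for shares. These cover counting error only. No p-value is given, since each group has 1 library. Members called lie 1.5-fold apart between libraries, or 2-fold between cell classes, on the CPM + 1 scale, at 10 CPM or more in either group. Members of 10 CPM or more are given with their values, those of 2 to 10 CPM where they pass the fold, and of the supply list up to 3 each way by median S phase ratio. Members and lists were chosen with earlier results of these data known. Of the 77 members 75 were matched to the reference by identifier and 2 by symbol. Doublets were not called. Cells under 4700 UMIs (1605 of 8883) were left out of the cell classes. Alternatives were TMM (edgeR 4.0.16) and DESeq2 1.42.0 size factors in R 4.3.3, other class cuts, thinned counts, other minima and pseudocounts, and leaving out members of shared ends or cells of other types. The scripts were tested on simulated data and ran in Python 3.11.15 with numpy 2.4.6, scipy 1.17.1, pandas 2.3.3 and matplotlib 3.10.9.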

Additional observations from a re-analysis of the deposited data

Results flagged for a closer look

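In 4 members the ratio between cell classes lay on opposite sides of 1 in 2 libraries, with intervals that do not include 1. None of these differences was tested, since each group has 1 library. The members were searched over several class contrasts and library pairs, and the rule was not applied to all genes. No share of all genes therefore stands beside this count, and the intervals cover counting error only. H1f0 in both-high over non-cycling cells had a ratio of 1.504 in the uninduced and 0.607 in the 6-day library. Without cells of other lineages these were 1.49 and 0.524. H2afy in both-high over non-cycling cells had a ratio of 0.893 in the uninduced and 1.04 in the control library. Erythroid markers summed to 8281 CPM in uninduced, 15.7 CPM in 3-day, 5957 CPM in 6-day and 39.4 CPM in control both-high cells. Hist1h2bc in G2/M over non-cycling cells had a ratio of 1.55 in the 3-day and 0.750 in the control library. Hist4h4 in S phase over non-cycling cells had a ratio of 2.62 in the uninduced and 0.635 in the control library, and leaving out cells of other lineages gave 2.62 and 0.637.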

How the results depend on the processing

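No paired analysis was possible because the labels put 1 library in each group. For the 28 sums and counts, 78 of 136 alternatives moved the value by less than its counting interval, or a count by less than 1.5 times, 58 moved it further and 0 reversed a value past 1.5-fold. Only a sum past 1.5-fold could be called reversed, which held for 32 of the 120 alternatives of sums. The replication-linked sum in uninduced over control cells was 0.956 with TMM, 0.963 with DESeq2 and 0.999 without members of mostly shared ends, and in 6-day over uninduced cells 0.981 without those members. In 6-day over control cells it was 1.04 with TMM and 1.05 with DESeq2. With TMM and DESeq2 the replacement sum was 1.07 and 1.08 in uninduced over control, 1.01 and 1.01 in 3-day over uninduced, 0.933 and 0.934 in 6-day over uninduced, and 1.00 and 1.01 in 6-day over control cells. The Hist1h2a sum in uninduced over control cells was 0.779 with DESeq2, 0.554 without members of mostly shared ends and 0.844 in G2/M alone. Leaving out those members keeps 2 genes, and Hist1h2ac gave 128 of 128 uninduced and 257 of 259 control UMIs, so these values repeat those of Hist1h2ac and are no check of the sum. In 3-day over uninduced cells it was 1.46 without those members and 0.930 in S phase alone, and in 6-day over uninduced cells 1.5004, 1.53 in S phase and 1.21 in G2/M. In 6-day over control cells it was 1.07 with TMM, 1.07 with DESeq2, 0.832 without those members and 1.17 in S phase. The class and shared-end alternatives for the Hist1h2a sum were chosen after seeing the data, as was leaving out cells of other types. For S phase over non-cycling cells, the replication-linked ratio in uninduced, 3-day, 6-day and control libraries was 1.28, 1.14, 1.34 and 1.13 without members of mostly shared ends, 1.25, 1.27, 1.16 and 1.16 with tercile cuts, and 2.36, 1.94, 2.60 and 2.17 with H2afx added. In uninduced, 6-day and control libraries it was 1.59, 1.64 and 1.52 with classes by score and 1.83, 1.93 and 1.64 with thinned counts. The replacement ratio was 1.25, 1.25, 1.24 and 1.23 with tercile cuts and 1.27, 1.21, 1.24 and 1.22 with classes by score, and 1.43 in the uninduced and 1.39 in the control library with TMM. A minimum of 2 CPM gave 10 lower members in uninduced over control, 6 higher in 3-day over uninduced and 7 higher in 6-day over uninduced cells, and a pseudocount of 0.1 CPM gave 2 higher in 3-day over uninduced cells. For single members 1037 of 1128 alternatives stayed within the interval, 88 moved and 3 reversed, all with tercile cuts: Hist2h2be at 0.884 and Hist1h1e at 0.836 in the 6-day and Hist1h4h at 0.867 in the control library. Only a ratio past 1.5-fold could be called reversed, which held for 606 of the 1128 alternatives, and 603 of these kept their direction. The causes were not tested.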
